A study of Homo sapiens and Mus musculus with 160 samples.

Results

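ZFP36, ZFP36L1, ZFP36L2, BTG1, BTG2, BTG3, TOB1 and TOB2 encode proteins that promote the decay of other mRNAs, and the results below give the half-lives of their own mRNAs. The 8 genes were taken by symbol, ignoring case, from tables that list 18165 human and 17985 mouse genes, and each of them had a value at all 6 half-lives in all 4 tables. The cells, titled WT (wild type), were untreated K562, a human chronic myelogenous leukaemia line, and untreated NIH-3T3, a mouse embryonic fibroblast line. Each is a single established line, so cell type, species and culture cannot be told apart in any comparison between them. New RNA was tagged with 4-thiouridine for 0, 15, 30, 60 or 120 minutes and read by TimeLapse chemistry in chromatin, nuclear, cytoplasmic, polysome and total RNA, with 2 replicate time courses per line (50 of the 160 samples in each line). The other 60 samples, from K562 cells carrying shRNAs, were not analysed here.

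The 3 ZFP36 proteins carry paired zinc fingers that bind AU-rich elements in the 3' untranslated regions (3' UTRs) of target mRNAs and recruit the CCR4-NOT deadenylase complex, which shortens the poly(A) tail. BTG and TOB proteins share an N-terminal domain that binds the CNOT7 and CNOT8 deadenylases, and several of them also contact the poly(A)-binding protein PABPC1. Both groups are textbook examples of early response and antiproliferative genes whose own transcripts turn over fast. ZFP36 protein is known to bind the AU-rich element of its own mRNA.

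The sequence motifs named in this literature were looked up in the human transcripts, because they are the elements through which the ZFP36 proteins recognise mRNAs. The windows below hold the most ATTTA pentamers, the core of an AU-rich element, that 30 bases of each 3' UTR contain, the window with its matches most central where several tie. They are given 5' to 3' on the transcript strand, written as DNA, from the longest 3' UTR of a principal GENCODE v29 transcript (hg38), and capitals mark the ATTTA matches.
ZFP36: cctttATTTAtgacgactttATTTAttcta
ZFP36L1: cttATTTAacttatcaaaacgtATTTAttg
ZFP36L2: tgaaaactATTTAacttATTTAttatcttg
BTG1: gatggattatggaATTTAaaccatgtcaca
BTG2: taaatgaagagctATTTAtatatattattt
BTG3: attggacttgagtATTTAtatattgtgcat
TOB1: taattgtataATTTAATTTAgtacaaagtt
TOB2: ccaccggcctgtgATTTAtttggttggttt

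These windows lie at chr19:39409188-39409217 (plus strand) for ZFP36, chr14:68788345-68788374 (minus) for ZFP36L1, chr2:43223452-43223481 (minus) for ZFP36L2, chr12:92143976-92144005 (minus) for BTG1, chr1:203307527-203307556 (plus) for BTG2, chr21:17593831-17593860 (minus) for BTG3, chr17:50862645-50862674 (minus) for TOB1 and chr22:41436078-41436107 (minus) for TOB2. The pentamer occurred 5 times in the 713 bases of the ZFP36 3' UTR, 8 times in the 1871 bases of ZFP36L1 and 5 times in the 1917 bases of ZFP36L2. As many were held by 5.46%, 12.9% and 38.8% of 3' UTRs within 20% of the same length. The longer heptamer TATTTAT, the preferred ZFP36 target, occurred 3 times in each of the 3 ZFP36 family genes. Among 3' UTRs within 20% of the same length, 1.31% held as many heptamers as ZFP36, 4.60% as many as ZFP36L1 and 4.59% as many as ZFP36L2. Only ZFP36L1 held the nonamer ATTTATTTA, which is made of overlapping pentamers, once, and 6.70% of 3' UTRs of like length held it. Other nonamers were not counted. One of them, TTATTTATT, stands in the windows of ZFP36 and ZFP36L2 above, so the absence of ATTTATTTA there does not mean that these genes lack every AU-rich nonamer.

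BTG3, with a short 3' UTR of 440 bases, held 2 heptamers, a number that 2.31% of 3' UTRs of like length reached. BTG1 (3802 bases), BTG2 (2164 bases) and TOB2 (2819 bases) held 1 heptamer each. At least 1 was held by 61.7%, 45.5% and 54.0% of 3' UTRs of like length. TOB1 (757 bases) held none, where 21.1% of like length held at least 1. Pentamers numbered 5 in BTG1, 2 in BTG2, 3 in BTG3, 4 in TOB1 and 3 in TOB2. As many were held by 73.8%, 81.6%, 9.62%, 11.9% and 79.8% of 3' UTRs of like length. BTG1 was the single member with the Pumilio motif TGTANATA, which Pumilio decay factors bind, with 4 matches against 2.37% of like length with as many. Only the transcript strand was searched, overlapping matches were counted, and each heptamer or nonamer also contains a pentamer. Mouse 3' UTRs were not analysed here.

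In whole cells, 7 of the 8 mRNAs were short-lived in both lines and BTG3 was short-lived in K562 alone. Values are the authors' posterior modes in minutes for replicate 1 and then replicate 2, and brackets hold their 95% credible intervals, which cover the fit within 1 time course. K562 members ranged from 22 to 61 minutes, while the median of all genes was 210 and 200 minutes. NIH-3T3 members other than Btg3 ranged from 14 to 52 minutes, against an all-gene median of 110 minutes in both tables. In K562 the members' percentiles among all genes ran from 0.417 to 8.45, and in NIH-3T3 from 0.443 to 16.0 without Btg3.

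Of the RNA-binding family, ZFP36 itself (tristetraprolin) was at 30 (19 to 44) and 23 (14 to 37) minutes in K562 whole cells. In NIH-3T3, Zfp36 had 15 (12 to 19) and 14 (11 to 17) minutes, the shortest of the 8. ZFP36L1 was at 31 (25 to 38) and 22 (16 to 27) minutes in K562 and 37 (32 to 42) and 31 (28 to 35) minutes in NIH-3T3. The paralogue ZFP36L2 stood close to it, with 27 (24 to 31) and 30 (26 to 35) minutes in K562 and 32 (31 to 34) and 29 (27 to 31) minutes in NIH-3T3.

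Of the BTG genes, BTG1, a frequent mutation target in lymphoma, was the longest-lived member in K562 with 61 (52 to 72) and 55 (46 to 66) minutes, and had 44 (41 to 47) and 49 (46 to 50) minutes in NIH-3T3. BTG2, a p53 target and early response gene, showed 32 (26 to 38) and 30 (22 to 40) minutes in K562 and 19 (15 to 24) and 22 (18 to 26) minutes in NIH-3T3. BTG3, also called ANA, had 44 (35 to 54) and 36 (27 to 46) minutes in K562. Its mouse counterpart had 140 (110 to 180) and 170 (130 to 210) minutes, at the 62.1 and 70.1 percentiles of its tables, and no interval of Btg3 overlapped one of BTG3.

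The TOB proteins bridge the deadenylases and PABPC1. TOB1 was at 47 (39 to 56) and 42 (34 to 52) minutes in K562, and 52 (41 to 66) and 51 (42 to 63) minutes in NIH-3T3. TOB2 was at 40 (35 to 46) and 50 (42 to 58) minutes in K562, and 44 minutes in both NIH-3T3 tables (39 to 49 and 40 to 49). Each interval of these 2 genes overlapped those of the other line.

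By the geometric mean of both replicates, the K562 order from shortest to longest was ZFP36L1, ZFP36, ZFP36L2, BTG2, BTG3, TOB1, TOB2 and BTG1. No 2 neighbours in that order had intervals apart in both replicates. In NIH-3T3 the order was Zfp36, Btg2, Zfp36l2, Zfp36l1, Tob2, Btg1, Tob1 and Btg3. There Btg2 and Zfp36l2, and Tob1 and Btg3, were apart in both replicates, and the other neighbours were not.

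**Figure D1:**
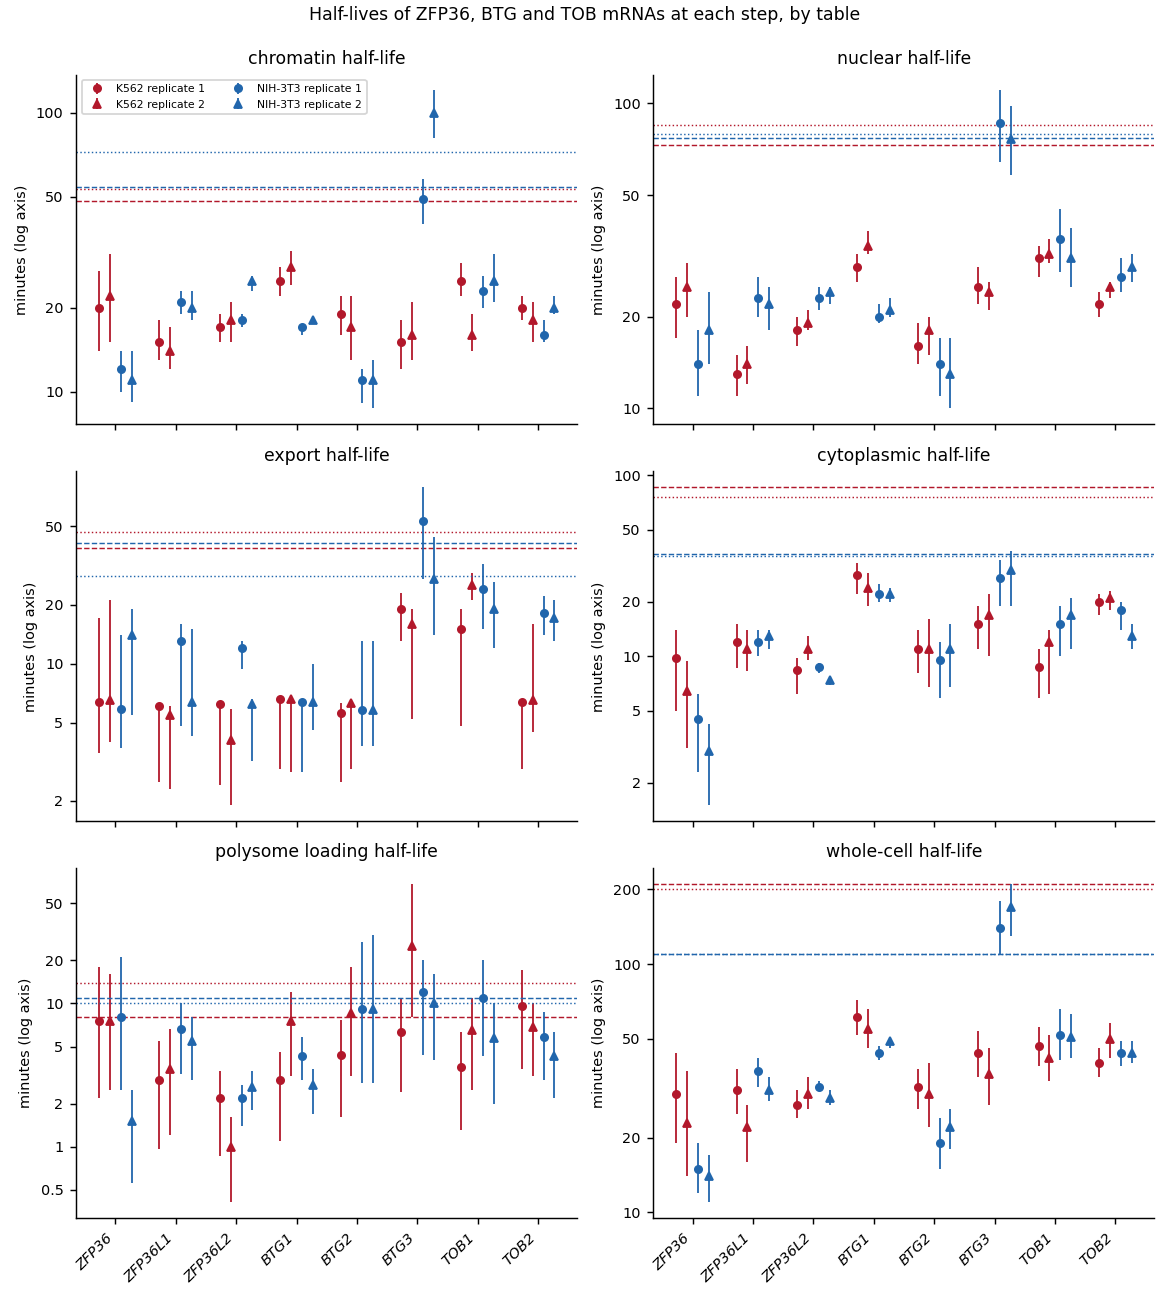
Posterior modes (points) and 95% credible intervals (bars) of the 8 mRNAs at each of the 6 half-lives, in minutes on log axes, for K562 (red) and NIH-3T3 (blue), with circles for replicate 1, triangles for replicate 2, and the all-gene median of each table as a dashed (replicate 1) or dotted (replicate 2) line. Outside polysome loading, most points lie well under the medians, and Btg3 in NIH-3T3 lies near or above them at every half-life except the cytoplasmic one, where its 27 and 30 minutes are under 37 and 36.

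The first step is release from chromatin, where nascent and newly finished transcripts sit. K562 members had chromatin half-lives of 14 to 28 minutes, against all-gene medians of 48 and 53 minutes. ZFP36L1 was shortest with 15 (13 to 18) and 14 (12 to 17) minutes and BTG1 longest with 25 (22 to 28) and 28 (24 to 32) minutes. TOB1 was the K562 member whose replicates differed most at this step, with 25 (22 to 29) and 16 (14 to 19) minutes.

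In NIH-3T3, 7 of the 8 had chromatin half-lives of 11 to 25 minutes, against all-gene medians of 54 and 72. Btg2 had 11 minutes in both tables (9.1 to 12 and 8.7 to 13), and Zfp36 had 12 (10 to 14) and 11 (9.2 to 14). Btg3 had 49 (40 to 58) and 100 (81 to 120) minutes, so both of its values stood above all those of the other members although the replicates differed 2.04-fold.

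Nuclear half-lives, which take in chromatin and nucleoplasm, followed the same pattern. K562 members ran from 13 to 34 minutes against all-gene medians of 73 and 85, with ZFP36L1 shortest at 13 (11 to 15) and 14 (12 to 16) minutes. TOB1, with 31 (27 to 34) and 32 (30 to 36) minutes, and BTG1, with 29 (26 to 32) and 34 (32 to 38) minutes, were the longest. In NIH-3T3, Btg2 had 14 (11 to 17) and 13 (10 to 17) minutes, and Btg3 had 86 (64 to 110) and 76 (58 to 98) minutes beside medians of 77 and 79. The other 6 lay between 14 and 36 minutes. The chromatin mode was above the nuclear mode for ZFP36L1 (15 and 13 minutes) and BTG2 (19 and 16) in K562 replicate 1. In NIH-3T3 replicate 2 it was above for Zfp36l2 (25 and 24 minutes) and Btg3 (100 and 76). The chromatin and nuclear intervals overlapped in each of these cases, and the cause was not tested.

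Export half-lives describe RNA released from chromatin but still in the nucleus. In K562, 6 members had modes of 4.1 to 6.6 minutes, while BTG3 had 19 (13 to 23) and 16 (5.2 to 19) minutes and TOB1 had 15 (4.8 to 19) and 25 (21 to 29) minutes. All-gene medians were 39 and 47 minutes. For 4 members in K562 replicate 1 and 3 in replicate 2 the mode was at least 0.9 times the upper end of its own interval, as it was for 18.3% and 26.4% of all genes. In NIH-3T3, Zfp36 differed most between replicates, 2.37-fold, with 5.9 (3.7 to 14) and 14 (5.5 to 19) minutes.

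In the cytoplasm, where deadenylation and decay act on translated mRNA, members had 6.4 to 28 minutes in K562 and 3.0 to 30 minutes in NIH-3T3. The all-gene medians were 86 and 76 minutes in K562 and 37 and 36 minutes in NIH-3T3. ZFP36 had the shortest geometric mean in both lines, with 9.8 (5 to 14) and 6.4 (3.1 to 9.4) minutes in K562 and 4.5 (2.3 to 6.2) and 3 (1.5 to 4.2) minutes in NIH-3T3. In NIH-3T3 it was apart from its nearest neighbour Zfp36l2, at 8.7 (8.1 to 9.2) and 7.4 (6.9 to 7.8) minutes, in both replicates.

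BTG1 led the members in the K562 cytoplasm with 28 (22 to 33) and 24 (19 to 29) minutes, and was nearly level between the lines, with 22 (20 to 25) and 22 (20 to 24) minutes in NIH-3T3. Btg3 led in NIH-3T3 with 27 (19 to 34) and 30 (19 to 38) minutes, and its intervals overlapped those of Btg1 in both replicates. Cytoplasmic modes were under the shortest labelling time of 15 minutes in both replicates for 5 of 8 members in K562 and 4 of 8 in NIH-3T3.

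Polysome loading, the time a cytoplasmic mRNA takes to join polysomes, gave the least precise values. Only 1 to 5 of the 8 members per table had intervals of at most 4-fold width. In all 4 tables at once, 1 member had such intervals, beside 357 of 8358 genes. ZFP36L2 was loaded fastest in geometric mean in both lines, with 2.2 (0.86 to 3.4) and 1 (0.41 to 1.6) minutes in K562 and 2.2 (1.4 to 2.7) and 2.6 (1.8 to 3.4) minutes in NIH-3T3. The all-gene medians were 8 and 14 minutes in K562 and 11 and 10 minutes in NIH-3T3. No pair of paralogues was apart at this step in either line, and Zfp36 moved 5.33-fold between the NIH-3T3 replicates, from 8 (2.5 to 21) to 1.5 (0.56 to 2.5) minutes.

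The labels follow a transcript from chromatin to polysomes, so steps were compared within each line, and a gene was counted where the 2 intervals did not overlap, in the same direction, in both replicates. The nucleus held the RNA longer than the cytoplasm for 3 of 8 members in K562 (ZFP36, ZFP36L2 and TOB1), a count to be read against 24.2% of all genes. TOB1 had ratios of nuclear to cytoplasmic half-life of 3.56 and 2.67, and ZFP36 had 2.24 and 3.91. No member had the longer cytoplasmic half-life in K562, where 26.4% of all genes did.

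In NIH-3T3 the nuclear half-life was longer for 6 of 8 members, all but Btg1 and Btg2, beside 51.8% of all genes. Zfp36 had nuclear to cytoplasmic ratios of 3.11 and 6, Btg3 had 3.19 and 2.53, and Btg1 had 0.909 and 0.955, the single member below 1. No member had the longer cytoplasmic half-life, where 5.71% of all genes did. The nuclear half-life made up 50.9% to 79.6% of the nuclear plus cytoplasmic total for the members in K562, with all-gene medians of 45.2% and 51.2%, and 47.6% to 85.7% in NIH-3T3, with all-gene medians of 65.4% and 66.9%.

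**Figure D2:**
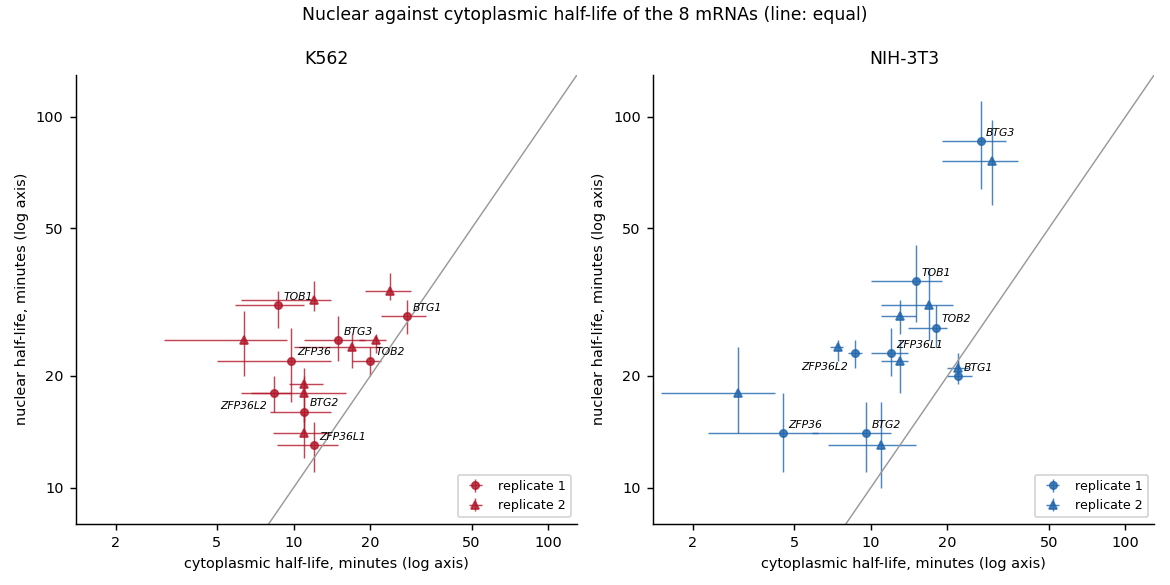
Nuclear half-life (vertical) against cytoplasmic half-life (horizontal) of the 8 mRNAs, in minutes on log axes, with 95% credible intervals as bars, circles for replicate 1 and triangles for replicate 2; the line marks equal values. All K562 points lie above the line, Btg1 in NIH-3T3 lies just under it, and Btg3 in NIH-3T3 stands apart at 86 and 76 minutes in the nucleus.

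Chromatin half-life exceeded export half-life for 4 of 8 members in K562 (ZFP36L1, ZFP36L2, BTG1 and BTG2), beside 26.9% of all genes. In NIH-3T3 it did so for 3 of 8 (Zfp36l1, Zfp36l2 and Btg1), beside 29.8% of all genes. BTG1 had ratios of 3.79 and 4.24 in K562 and 2.66 and 2.81 in NIH-3T3. Export was longer for 0 members in both lines, where 19.8% of all K562 genes and 1.55% of all NIH-3T3 genes had the longer export. Some export modes of the members called here were at least 0.9 times the upper end of their own interval. In K562 this held for ZFP36L1 and BTG1 in both replicates, ZFP36L2 in replicate 1 and BTG2 in replicate 2. In NIH-3T3 it held for Btg1 in replicate 1 and Zfp36l2 in both, beside 4.45% and 2.40% of all genes. Its part in the calls was not tested.

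Cytoplasmic half-life exceeded polysome loading time for 3 of 8 members in K562 (ZFP36L1, ZFP36L2 and BTG1), beside 55.9% of all genes. The count was also 3 of 8 in NIH-3T3 (Zfp36l2, Btg1 and Tob2), beside 46.8% of all genes. BTG1 had the widest gap in K562 replicate 1 with a ratio of 9.66, and 3.20 in replicate 2, and in NIH-3T3 it had 5.12 and 8.15. The reverse order was found for 0 members, beside 0.243% of all genes in K562 and 0.514% in NIH-3T3.

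Paralogues were set side by side within each table, where they share every library. Over 7 pairs within families and 6 half-lives, 9 of 42 comparisons were apart in both replicates in K562 and 20 of 42 in NIH-3T3. Other gene pairs were not counted, so these counts cannot say whether paralogues differ more or less than other genes. In K562, 5 of the 9 were nuclear: ZFP36 and ZFP36L2 each exceeded ZFP36L1, BTG1 and BTG3 each exceeded BTG2, and TOB1 exceeded TOB2. TOB1 and TOB2 then changed order in the K562 cytoplasm, where TOB2, with 20 (17 to 22) and 21 (18 to 23) minutes, exceeded TOB1, with 8.7 (5.9 to 11) and 12 (6.2 to 14) minutes. Over the whole cell they were not apart.

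In NIH-3T3 Zfp36 was shorter than both Zfp36l1 and Zfp36l2 on chromatin, in the cytoplasm and in the whole cell. Btg3 was longer than Btg2 at chromatin, nuclear, export, cytoplasmic and whole-cell half-life, and longer than Btg1 at all of these but the cytoplasmic one. BTG1 exceeded BTG2 in both lines in nuclear, cytoplasmic and whole-cell half-life, and in NIH-3T3 also on chromatin. Tob1 and Tob2 were not apart at any half-life in NIH-3T3.

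The lines were then compared gene by gene with limma on log2 modes, 2 tables against 2, with genes paired by symbol and p-values adjusted by Benjamini-Hochberg over all genes of that half-life. Differences are log2 of K562 minus NIH-3T3 with the standard error (SE), and a difference was called at an adjusted p under 0.05. Whole-cell half-lives were longer in K562 for most genes, with a median difference of 0.84 over 8913 genes, and the all-gene median was 1.11 for cytoplasmic, -0.35 for chromatin, 0.33 for export, -0.14 for polysome loading and 0 for nuclear half-life. The median of the 8 members was -0.04 for whole-cell and 0.17 for cytoplasmic half-life.

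In whole cells, 2 members were longer in K562, beside 60.2% of all genes, and 1 was shorter, beside 5.06%. ZFP36 was longer by 0.86 (SE 0.17, limma adjusted p = 0.0211) and BTG2 by 0.60 (SE 0.12, limma adjusted p = 0.0222), and both differences turned to the other sign, -0.11 and -0.37, once each table was centred on its own median. BTG3 was shorter in K562, with -1.96 (SE 0.18, limma adjusted p = 0.00424), a 3.88-fold difference, and only 0.651% of genes had a lower one. The 5 others lay from -0.38 for ZFP36L1 (SE 0.23) to 0.32 for BTG1 (SE 0.12), and TOB2 had 0.02 (SE 0.15).

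Relative to the table medians, 6 members were shorter in K562 and 0 longer, beside 26.3% and 18.2% of all genes. All members but ZFP36 and BTG2 passed, from -0.65 for BTG1 to -2.92 for BTG3 (limma adjusted p = 0.0220 and 0.00645). TOB1 had -1.18, ZFP36L2 -1.07, TOB2 -0.94 and ZFP36L1 -1.34 on that scale. As deposited, the differences of these 5 members other than BTG3 ran from -0.38 to 0.32 and did not pass, beside an all-gene median of 0.84.

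Cytoplasmic half-life showed the same split between scales. As deposited, 1 member, BTG3, was shorter in K562, beside 2.08% of all genes, with -0.83 (SE 0.20, limma adjusted p = 0.0296), and 0 were longer, beside 53.4%. That call was lost on leaving out any 1 table, where the difference ran from -0.74 to -0.92. A fit with 1 table left in a line cannot show whether this loss is particular to BTG3. ZFP36 had 1.11 (SE 0.35, limma adjusted p = 0.0595) and did not pass. With centred tables, 5 were shorter (ZFP36L1, BTG1, BTG2, BTG3 and TOB1), beside 14% of all genes, and 0 longer, beside 9.84%, with values from -0.98 for BTG1 to -2.06 for BTG3.

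On chromatin, ZFP36 was longer in K562 by 0.87 (SE 0.36, limma adjusted p = 0.0496), beside 10% of all genes called longer. The posterior mean in place of the mode (limma adjusted p = 0.0920) or leaving out any 1 of the 4 tables ended that call. Without 1 table the ZFP36 difference ran from 0.80 to 0.94. BTG3 was shorter by a log2 difference of -2.18 (SE 0.37, limma adjusted p = 2.51e-06), beside 28.6% of all genes called shorter. It lost the call without NIH-3T3 replicate 1 or 2, at differences of -2.69 and -1.66. A fit with 1 table left in a line cannot show whether such losses are particular to ZFP36 or BTG3. With centred tables the calls were 3 longer (ZFP36, BTG1 and BTG2), beside 25.8%, and 1 shorter (BTG3, -1.82), beside 26.8%. In the nucleus, BTG1 was longer in K562 by 0.62 (SE 0.14, limma adjusted p = 0.0382), beside 19.9% of all genes, and ZFP36L1 and BTG3 were shorter, beside 20%. ZFP36L1 had -0.74 (SE 0.12, limma adjusted p = 0.0198) and BTG3 had -1.72 (SE 0.13, limma adjusted p = 0.0104). All 3 nuclear calls as deposited were lost on leaving out any 1 of the 4 tables, as were all nuclear calls among all genes. With centred tables, 2 members were longer in the nucleus, beside 25.4% of all genes, and 2 shorter, beside 24.5%. ZFP36 was the member added, longer by 0.58 (limma adjusted p = 0.0444).

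Export and polysome loading gave no called member. For export, limma called 0 members longer and 0 shorter, beside 4.36% and 4.60% of all genes, and 1 member had an unadjusted p under 0.05 (TOB2, -1.44, SE 0.40), beside 3037 of 9135 genes. With centred tables, TOB2 and BTG3 were shorter in K562, beside 15.3% of all genes, and 0 members were longer, beside 9.95%. For polysome loading limma called 0 members in either direction, beside 0.443% and 0.395% of all genes, and 0 had an unadjusted p under 0.05, beside 933 of 8358 genes. SEs there ran from 0.65 to 1.03 log2 units, the widest of the 6 half-lives for these genes.

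The whole-cell calls were also refitted without 1 table, where the lone table of a line is assumed to vary like the other line's. Without NIH-3T3 replicate 1 or replicate 2 the whole-cell difference of BTG3 was -2.10 or -1.82 and the limma adjusted p 0.0599 or 0.0617, and 0 of all genes were then called. Without K562 replicate 1 or 2 its whole-cell call held, at -2.10 (limma adjusted p = 0.0449) and -1.81 (limma adjusted p = 0.0494). ZFP36 lost its whole-cell call without K562 replicate 1 and without either NIH-3T3 replicate, and BTG2 lost it without any 1 of the 4 tables.

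**Figure D3:**
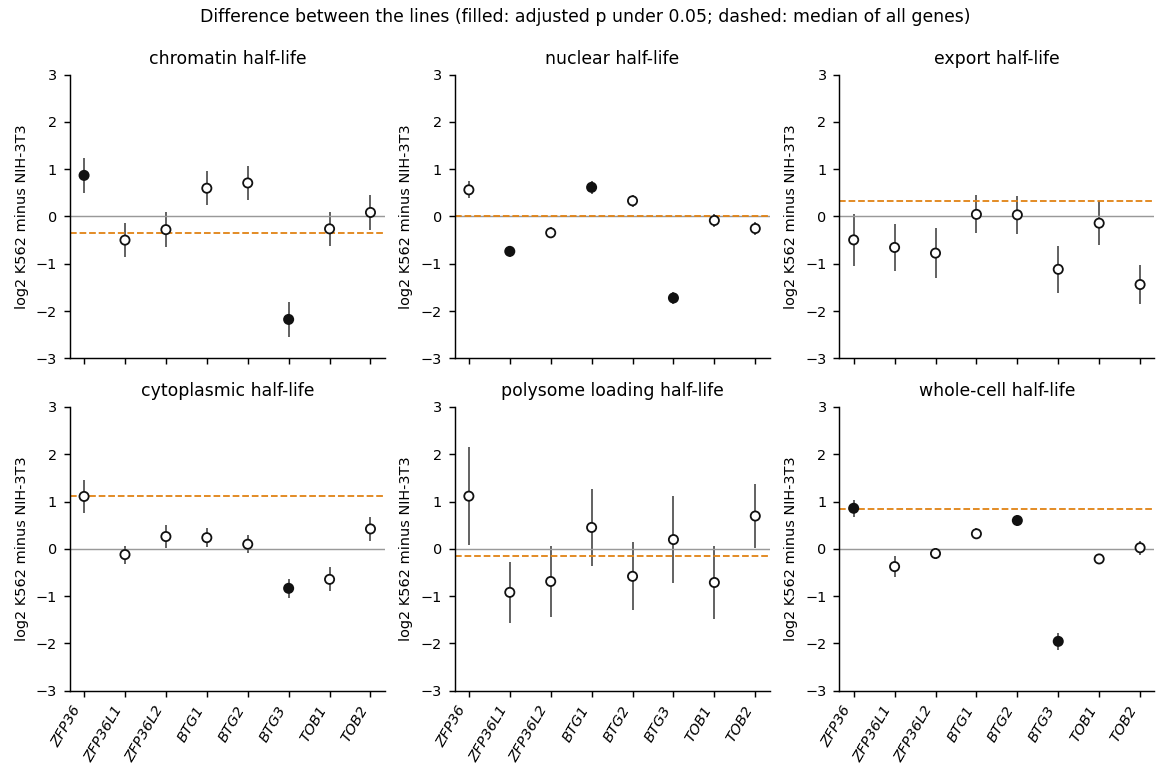
Difference between K562 and NIH-3T3 (log2 of K562 minus NIH-3T3, with SE) for each mRNA and half-life; filled points have an adjusted p under 0.05 as deposited, open points do not, and the dashed line is the median of all genes. BTG3 is the lowest point on chromatin, in the nucleus, in the cytoplasm and in whole cells, and the filled points of ZFP36 and BTG2 in whole cells lie above 0, at 0.86 and 0.60 beside a median of 0.84, and both turn negative when each table is centred on its own median.

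A comparison of the ratio of 2 steps between lines asks whether a member's time was divided differently in each. For nuclear against cytoplasmic half-life limma called 0 members higher and 0 lower in K562, beside 4.02% and 38.4% of all genes, and 1 member had an unadjusted p under 0.05 (BTG3, -0.89, SE 0.34), beside 4820 of 9087 genes. After centring, 3 were higher (BTG1, BTG2 and TOB1), beside 15.5%, and 0 lower, beside 14.5%. For chromatin against export 0 were called higher and 0 lower, beside 1.92% and 5.21%, and 0 had an unadjusted p under 0.05, beside 2672 of 9135 genes. After centring, 1 was higher (TOB2), beside 11.3%, and 0 lower, beside 6.95%. For cytoplasmic half-life against polysome loading limma called 0 members and 0% of all genes in either direction, and 0 members had an unadjusted p under 0.05, beside 1754 of 8358 genes.

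The authors also asked whether a model with decay in the nucleus explained each gene better than one without it. None of the 8 mRNAs carried their call of nuclear degradation in either line, beside 3.25% of 11409 assessed genes in K562 and 4.36% of 11667 in NIH-3T3. Their call equals a Bayes factor reaching 100 in each replicate. The highest factor of a member was 0.0053, for Zfp36 in NIH-3T3 replicate 1, and the highest in K562 was 0.00032, also for ZFP36. All members' factors favoured the model without nuclear decay.

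The proteins work with partners, and their mRNAs were followed in 5 lists drawn from textbook knowledge. For the 11 genes listed under the CCR4-NOT complex the whole-cell median was 219 minutes in K562 and 110 minutes in NIH-3T3, over geometric means of both replicates. On the same scale the all-gene medians were 208 and 109.5 minutes, and those of the 8 members 35.4 and 38.9 minutes. Of the 11, 9 were longer in K562 and 0 shorter, beside 60.2% and 5.06% of all genes, and after centring 5 were longer and 2 shorter, beside 18.2% and 26.3%. These all-gene shares also stand beside the counts of the 4 other lists. CNOT4, a ubiquitin ligase, was the shortest-lived of the 11 listed genes with 61 and 53 minutes in K562 and 54 in both NIH-3T3 tables. CNOT11 had the largest called difference, 2.32 (SE 0.15, limma adjusted p = 0.00332).

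PABPC1, the poly(A)-binding protein that BTG and TOB proteins contact, had 1200 and 1100 minutes in K562 and 620 in both NIH-3T3 tables, the longest of its 4-gene list. In that list 3 were longer in K562 and 1 shorter, and after centring 1 and 1. Among 14 other proteins that bind AU-rich or other 3' elements, 9 were longer in K562 and 1 shorter, and after centring the balance turned to 2 longer and 5 shorter. ZC3H12A, an endonuclease that cleaves inflammatory mRNAs, was as short-lived as the members, with 26 minutes in both K562 tables and 31 and 18 in NIH-3T3, and KHSRP, a decay-promoting RNA-binding protein, was the longest-lived with 510 and 430 minutes in K562.

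Of 11 kinases, phosphatase subunits and 14-3-3 proteins that act on ZFP36, all 11 were longer in K562, with a median difference of 0.99 beside 0.84 for all genes, and after centring 2 were longer and 1 shorter. MAPKAPK3, a kinase downstream of p38, had the largest, 2.51 (SE 0.20, limma adjusted p = 0.00362). Of 20 known ZFP36 family target mRNAs, 11 had values in all 4 tables, of which 4 were longer in K562 and 3 shorter, with a median difference of 0.05. After centring, 0 were longer and 7 shorter. The whole-cell median of the targets was 64.2 minutes in K562 (12 genes with a value) and 38.9 minutes in NIH-3T3 (17 genes). IER3, an early response target, was the shortest-lived in both lines, with 20 minutes in both K562 tables and 13 in both NIH-3T3 tables, and CCND1 (cyclin D1) was the longest-lived in NIH-3T3, with 91 and 110 minutes in K562 and 230 and 220 in NIH-3T3.

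**Figure D4:**
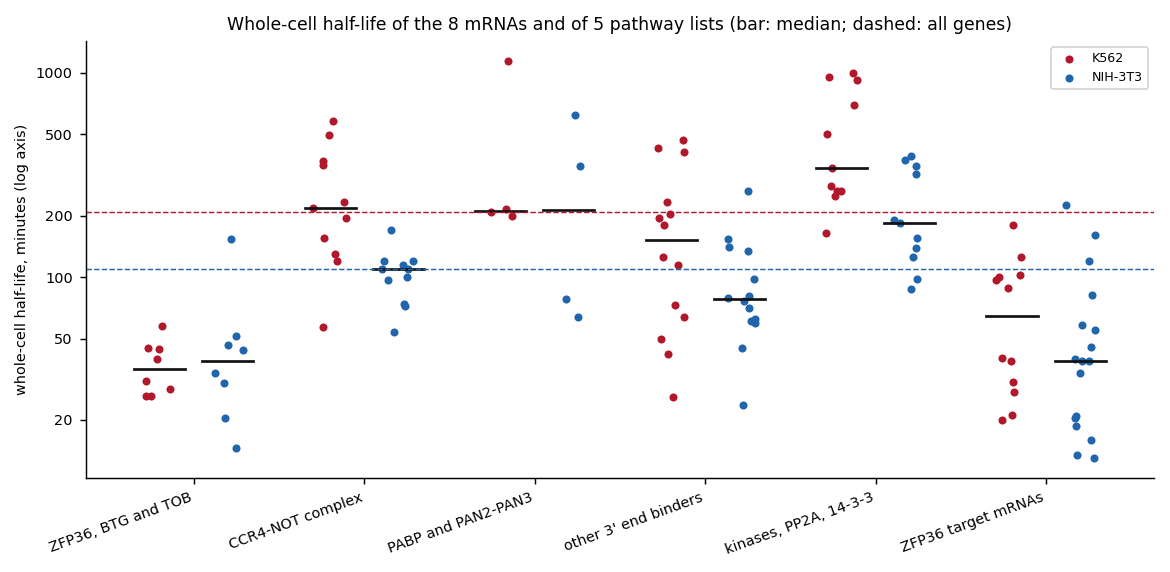
Whole-cell half-life in minutes (log axis; geometric mean of both replicates) of each gene of 6 sets in K562 (red) and NIH-3T3 (blue), with black bars for medians and dashed lines for the all-gene median of each line. The 8 ZFP36, BTG and TOB mRNAs have medians of 35.4 and 38.9 minutes, below those of the CCR4-NOT list at 219 and 110 minutes. The ZFP36 target mRNAs have medians of 64.2 minutes in K562 and 38.9 minutes in NIH-3T3, where they are level with the 8 mRNAs.

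The 2 genes nearest to each member were named from 20 values per gene (chromatin, nuclear, cytoplasmic, polysome loading and whole-cell half-life in 4 tables) over 8244 genes, by the root mean square log2 difference, where 0 means equal values. ZFP36L1 was nearest to NFKBIA, the NF-kappaB inhibitor (0.29), and TBCC (0.42). ZFP36L2 was nearest to PPP1R15A, a stress-induced phosphatase subunit (0.36), and JUN (0.61), and ZFP36 to DUSP1, a phosphatase of MAP kinases (0.64), and TRIB1 (0.66). For comparison, the median distance to all genes was 2.39 for ZFP36L1, 2.57 for ZFP36L2 and 2.78 for ZFP36.

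BTG2 was nearest to KBTBD8 (0.33) and SPRY4, a feedback inhibitor of growth factor signalling (0.35), and BTG1 to E2F8 (0.37) and NR2F2 (0.39). TOB1 was nearest to ZBTB14 (0.30) and SDE2 (0.38), and TOB2 to ZBTB9 (0.30) and TIPARP (0.33). BTG3 was nearest to TVP23B (0.52) and TMEM138 (0.54), and lay 1.04 or more from each other member, whereas BTG1 and TOB2 were 0.56 apart. With differences divided by the SD over genes, both named genes stayed among the nearest 2 for BTG2 and TOB2 and 1 of the 2 for each other member, and DUSP1 moved to rank 6 for ZFP36. The genes share tables and libraries, so likeness here is a description.

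Of the erythroid markers, 10 of 10 had a whole-cell value in the K562 tables and 0 of 10 in the NIH-3T3 tables, and of the fibroblast markers 10 of 10 had one in NIH-3T3 and 2 of 10 in K562 (Col1a2 and Fn1). The erythroid list holds human globin symbols that the mouse tables do not list, so its 0 is in part one of naming. In the hg38 annotation BTG3 and TOB1 overlap antisense genes (BTG3-AS1 and TOB1-AS1), BTG1 overlaps LINC01619 on its own strand and AC025164.1 on the other, and BTG1, BTG3 and TOB2 have pseudogenes named after them. The mouse tables list Btg1b and Btg1c without half-lives. How reads shared with such copies or overlapping genes were counted is not given in the sources used here, and their part in the values was not tested.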

How the data were processed

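Reads were trimmed with cutadapt 2.5 and aligned with STAR 2.7.0a to hg38 and mm10, per the submitters' processing notes. The deposited half-lives, in minutes with 2 significant digits, come from the authors' Bayesian fit of each replicate time course, 1 table per line and replicate, with no scaling across tables. The authors' Bayes factors and degradation calls were used as given. Numbers of reads are not part of the tables, so depth is unknown here and the credible intervals are the measure of precision. The tables' other columns (42 for K562 and 41 for NIH-3T3, rates and likelihoods among them) were not used.

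Between lines, log2-transformed modes were fitted with limma 3.58.1 (R 4.3.3) over symbols found once per line. Genes needed values in all 4 tables. The fit was tested on simulated data. The labels do not say that replicates are separate cultures, so p-values measure the spread between 2 tables per line, which may be technical. Intervals, nearest genes and motifs were computed with Python 3.11.15 and GENCODE v29. Alternatives were the posterior mean, a filter on interval width (at most 4-fold), centring, a replicate block, another variance model, other thresholds and leaving out each table. The 8 genes, the lists and the rule for named genes were chosen with earlier results of these data known. The rule names all 8 members, each one's 2 nearest genes and, per list, the longest and shortest whole-cell half-life and the largest called difference, of which some are printed.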

Additional observations from a re-analysis of the deposited data

How the results depend on the processing

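Centring each table on its median moved counts of members called between the lines from 2 to 4 on chromatin, 0 to 2 for export, 1 to 5 in the cytoplasm and 3 to 6 in whole cells, where the differences of ZFP36 and BTG2 became -0.11 and -0.37. Over all genes, centring moved the calls from 3626 to 4938 of 9380 on chromatin and 818 to 2305 of 9135 for export. They went from 5042 to 2167 of 9087 in the cytoplasm and 5820 to 3964 of 8913 in whole cells. Centring also took the members called for step ratios from 0 to 3 (nuclear against cytoplasmic) and 0 to 1 (chromatin against export). The posterior mean left 1 chromatin call, beside 2945 of 9380 genes, against 3626 with the mode. Intervals of at most 4-fold gave 2 cytoplasmic calls, beside 5105 of 7480 genes. The authors' other export estimate, added after seeing the data, gave 1 export call, beside 584 of 9100 genes. Replicate numbers did not pair the tables (correlations of deviations from -0.051 to 0.025). With the replicate block, nuclear calls went from 3 to 1 (ZFP36L1 at a limma adjusted p of 0.0561 and BTG1 at 0.0708). Nuclear calls over all genes went from 3774 to 2336 of 9466. In the cytoplasm BTG3 did not pass (limma adjusted p = 0.0536) and 1 other member did, beside 4584 of 9087 genes. BTG2 in whole cells (limma adjusted p = 0.0600) did not pass, where 5111 of 8913 genes did. Leaving out 1 table in turn left 1 table in a line. Member calls on chromatin, in the nucleus, in the cytoplasm and in whole cells then fell in each refit. The chromatin against export ratio gained member calls in at least 1 refit. Such fits cannot show whether these changes are particular to the members. Intervals at least 1.5-fold apart reduced nuclear over cytoplasmic counts from 3 to 1 in K562 and 6 to 3 in NIH-3T3, chromatin over export in NIH-3T3 from 3 to 1, and paralogue pairs from 9 to 0 and 20 to 10. By the order of the modes alone, 8 K562 members were longer in one of nucleus and cytoplasm, and 6 (K562) and 7 (NIH-3T3) in one of cytoplasm and polysome loading. Single replicates gave 3 to 6 NIH-3T3 members for cytoplasm against polysome loading and 12 to 14 K562 paralogue pairs. The cause of these changes was not tested. With 2 tables per line and half-lives rounded to 2 significant digits, small differences are not resolved, and read depth is unknown.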

Other observations

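K562 genes with a whole-cell half-life in both replicates were grouped by the number of TATTTAT heptamers in the 3' UTR of the transcript chosen as above, where one was found. The median was 226.5 minutes with 0 matches (7693 genes), 188 with 1 (2098 genes), 160 with 2 (806 genes) and 149 with 3 or more (634 genes). The median 3' UTR length in the same order was 691, 1807, 2858 and 4560 bases, and its part in this was not tested. ZFP36, ZFP36L1 and ZFP36L2, with 3 heptamers each, had 22 to 31 minutes. BTG3, with 2, had 44 and 36 minutes, and BTG1, BTG2 and TOB2, with 1 each, had 30 to 61 minutes. TOB1, with 0, had 47 and 42 minutes.

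The whole-cell half-life divided by the sum of the nuclear and cytoplasmic ones was 0.733 to 1.24 for the members in K562, with all-gene medians of 1.14 and 1.09. In NIH-3T3 Zfp36 had 0.811 and 0.667 and Btg3 had 1.24 and 1.60, with all-gene medians of 0.877 and 0.904.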
